A study of Mus musculus with 12 samples.

Results

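Type I interferon-stimulated antiviral genes were followed across the 4 groups of a macrophage array series. The set was a list of 47 gene symbols, and each gene was read from the array row whose platform symbol matched it exactly, taking the row with the highest mean over the 12 arrays where several matched. This found 42 genes of the 22180 with a row of their own. Oas1a, Ifi47, Dtx3l and Trex1 lie only on rows that the platform pairs with 2 symbols, and Ifi44 was not matched, so these 5 were not measured here. Of the 42, 41 passed a filter on dim signal and entered the tests, among 14079 genes tested in all. Ifnb1 did not pass it.

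Macrophages were differentiated from bone marrow of mice with the help of medium taken from L929 fibroblast cultures. Knockout (KO) cells came from Rasgef1b_fl/fl_vav-icre mice, in which floxed Rasgef1b is exposed to a Cre recombinase driven by Vav, a promoter active in blood-forming cells. Wild-type (WT) cells carry no stated Cre, and no strain, age or number of animals is stated for either genotype. The groups were KO with R848, WT with R848, KO with saline and WT with saline, with 3 arrays each. R848, a small agonist of TLR7 and TLR8, was given for 4 h, and no time is stated for saline. All levels and differences are on the log2 scale of the RMA intensities, where 1 unit stands for a doubling. Whether the 3 replicates of a group were separate mice or dishes is not stated, and the tests cover only the scatter among arrays, which may be technical.

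Arrays of the same group correlated at 0.991 to 0.996. Rasgef1b, which activates small GTPases of the Ras family, ranged from 8.60 to 9.45 in KO with R848, against 9.69 to 9.84 in WT with R848, and from 7.88 to 8.72 in KO with saline, against 9.03 to 9.19 in WT with saline. The KO arrays lay below the WT arrays in each treatment, and the difference averaged over treatments was -0.68 (limma adjusted p = 0.036). Signal remained in KO cells, and since the deleted exon is not stated the row is a partial check of the genotype. All 9 macrophage markers measured were above the dim limit, an intensity between 4.31 and 4.35 on each array, on all 12 arrays. The mean of these markers lay between 9.98 and 10.05 in KO with R848, against 9.93 to 9.99 in WT with R848, and between 10.23 and 10.24 in KO with saline, against 10.05 to 10.19 in WT with saline. With saline all 9 markers were higher in KO than in WT (median 0.11), while 44.9% of all tested genes were. With R848 7 were higher and 1 was lower (median 0.06), while 40.9% of all tested genes were higher. No macrophage marker was called between genotypes. In the bulk RNA measured here, a change in the share of a cell type and a change in RNA per cell cannot be told apart.

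Type I interferons are secreted proteins that cells release when sensors such as the Toll-like receptors or the cytosolic RNA sensors meet nucleic acid. They bind the receptor pair Ifnar1 and Ifnar2, whose kinases Jak1 and Tyk2 activate the transcription factor Stat2. Stat2 acts with Irf9 in a complex that binds the interferon-stimulated response element in the promoters of antiviral genes. Macrophages keep a low level of this signalling without infection, and many of the genes are also induced directly by interferon regulatory factors.

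The core of that element can be read in the promoters of several of these genes, here the 250 bases before and 50 after each annotated start in RefSeq (GRCm38.p6). The letters GAAANNGAA, or TTCNNTTTC on the opposite strand, were found in a promoter of 20 of the 38 listed genes that have one in the table (52.6%), against 2638 of 27025 genes in all (9.76%). With the related letters AANNGAAAC, or GTTTCNNTT, they were 23 of 38 (60.5%), against 6.61% of all genes. Matches can overlap, and Isg15 has 3 that run into each other. A match describes the letters in this window and is not a measured binding site. Stretches of 7 promoters are shown, chosen because they set genes that rose strongly beside genes that share the letters and did not. Each runs 5′ to 3′ on the gene's strand with 12 bases on either side of the outer matches, and capitals mark the matches.
Ifit1, chr19:34640768-34640825, plus strand: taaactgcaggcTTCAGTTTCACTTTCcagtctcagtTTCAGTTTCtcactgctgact
Rsad2, chr12:26456551-26456583, minus strand: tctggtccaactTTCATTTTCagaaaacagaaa
Isg15, chr4:156200864-156200908, minus strand: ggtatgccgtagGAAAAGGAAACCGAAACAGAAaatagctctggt
Oas1g, chr5:120887605-120887643, minus strand: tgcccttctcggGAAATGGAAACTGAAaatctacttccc
Phf11b, chr14:59341360-59341392, minus strand: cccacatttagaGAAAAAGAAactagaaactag
Ifit3, chr19:34583362-34583447, plus strand: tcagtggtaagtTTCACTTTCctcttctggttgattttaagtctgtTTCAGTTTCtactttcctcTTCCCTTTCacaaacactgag
Bst2, chr8:71537576-71537614, minus strand: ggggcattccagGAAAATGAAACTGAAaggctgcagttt

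In the unstimulated and stimulated cells alike, the genes spanned most of the array's range. Ifitm3, a membrane protein that blocks viral entry, had the highest mean intensity in every group, between 11.78 in KO with saline and 11.94 in WT with R848. The lowest means were those of Ifit3 with R848 (6.20 in KO and 6.09 in WT), of Mx2 in KO with saline (5.48) and of Phf11d in WT with saline (5.16). Intensities of different rows depend on their probes, so this order describes signal and not transcript number. Replicates lay close together, with a median SD over the 41 genes of 0.09 in KO with R848, 0.13 in WT with R848, 0.09 in KO with saline and 0.16 in WT with saline.

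**Figure D1:**
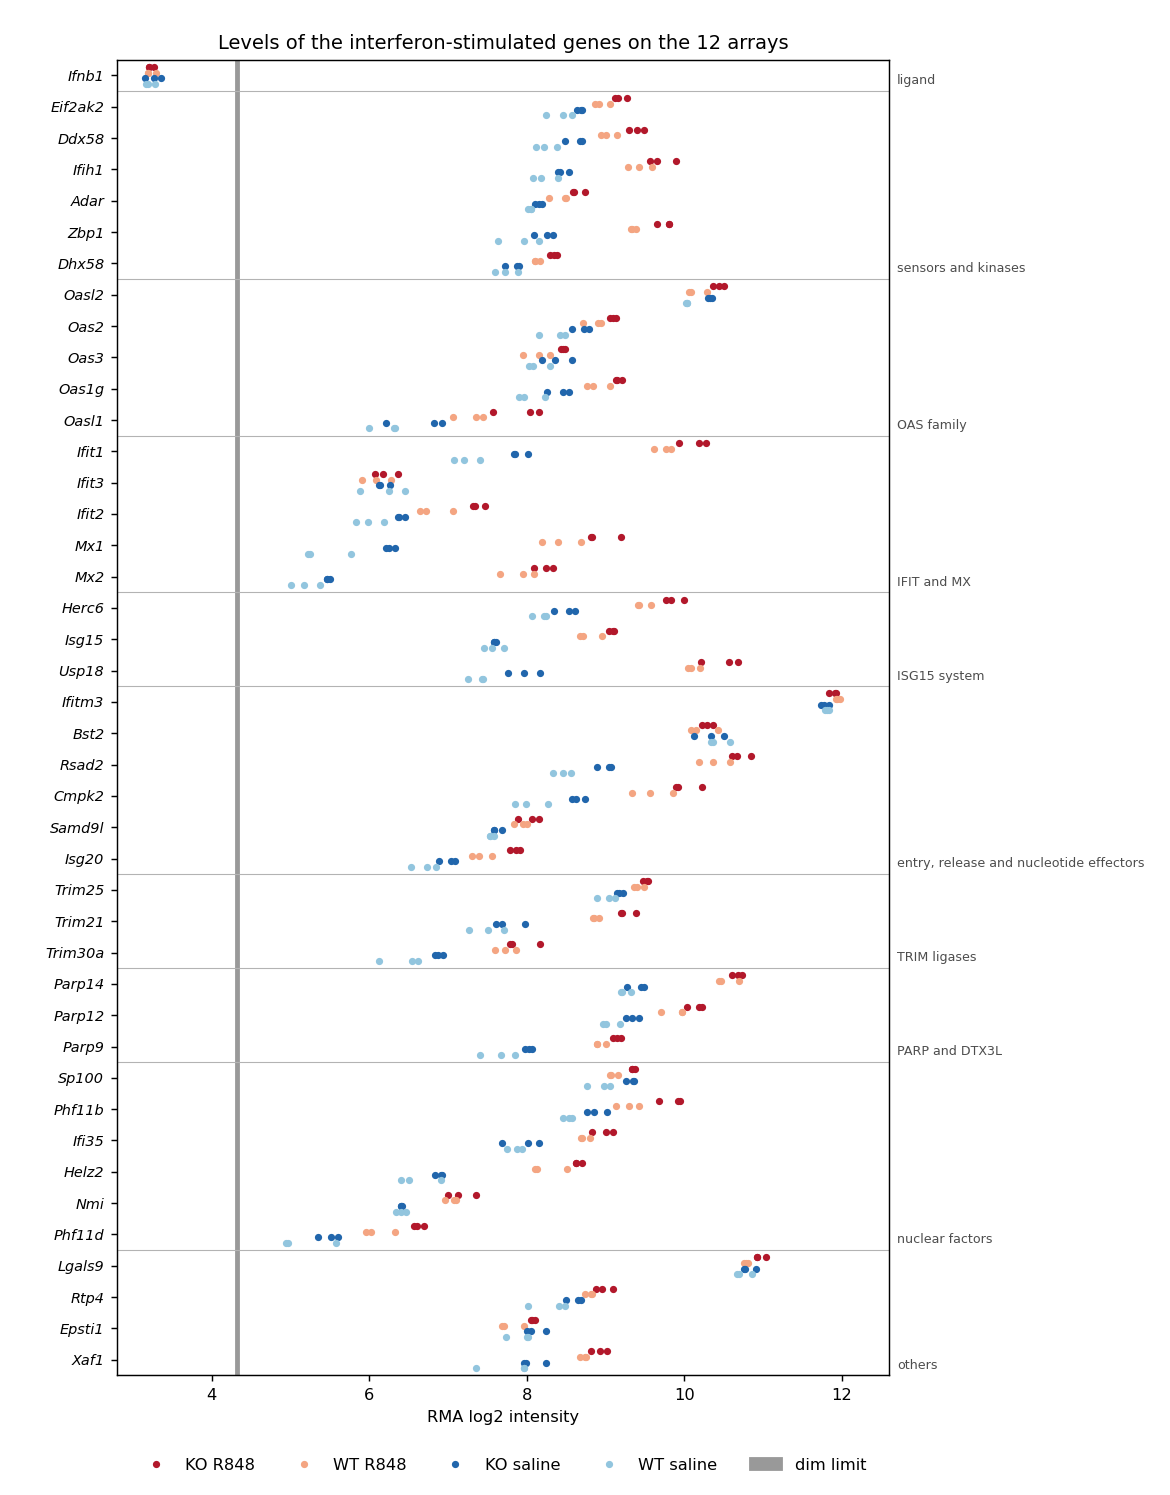
RMA log2 intensity (x axis) of the 42 measured genes (rows, grouped by role) on each of the 12 arrays, with 3 points per group and the dim limit as a grey band. Ifnb1 lies left of the band on all arrays, between 3.15 and 3.36, and the KO points of most other genes sit right of the WT points of the same treatment.

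Ifnb1, the gene of interferon beta, read 3.27, 3.20 and 3.20 in KO with R848 and 3.19, 3.29 and 3.19 in WT with R848. It read 3.27, 3.36 and 3.15 in KO with saline, against 3.17, 3.28 and 3.19 in WT with saline. All 12 values lay under the dim limit and the groups overlapped, so no difference was detectable with this row. Of 12 interferon alpha genes looked for, 11 had a row, 4 were above the dim limit on all arrays and 6 on none. None of the 5 that were tested passed the threshold of an adjusted p of 0.05 (limma) in any of the 6 contrasts, also not for R848. These genes are near-identical copies, so their rows may share signal.

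R848 raised most of the set in both genotypes. In KO cells 33 of the 41 genes rose and 0 fell, with a median log2 difference of 0.86, while over all tested genes 15.6% rose, 26.0% fell and the median was -0.03. In WT cells 33 rose and 0 fell, with a median of 0.83, while 14.6% of all tested genes rose, 23.6% fell and the median was -0.02. All 33 genes called in WT were also called in KO. At least 2-fold increases were called for 18 genes in KO, against 3.86% of all tested genes, and for 16 in WT, against 3.83%. The largest increases in WT were in the dynamin-like GTPase genes Mx1 and Mx2, in Usp18 and in Ifit1.

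Mx1, whose product blocks viruses with nuclear replication, had intensities of 8.81, 9.20 and 8.83 in KO with R848, against 6.25, 6.33 and 6.22 in KO with saline. In WT it had 8.69, 8.19 and 8.40 with R848, against 5.25, 5.77 and 5.23 with saline. All R848 arrays lay above all saline arrays, and the difference was 2.68 ± 0.15 (SE, limma adjusted p = 2.25e-09) in KO and 3.01 ± 0.15 (adjusted p = 6.87e-10) in WT, an 8.06-fold rise. Some laboratory strains carry a deleted Mx1 allele, so a transcript does not by itself mean a working protein.
Mx2 had 8.24, 8.33 and 8.09 in KO with R848, against 5.47, 5.46 and 5.50 in KO with saline, a difference of 2.74 ± 0.11. In WT it had 8.09, 7.66 and 7.95 with R848, against 5.17, 5.37 and 5.01 with saline, a difference of 2.72 ± 0.11. R848 arrays lay far above saline arrays in both genotypes, and the responses of the genotypes differed by 0.03 ± 0.16 (SE).
Ifit1, which binds viral RNA lacking a host cap structure, had 9.93, 10.27 and 10.18 in KO with R848, against 7.84, 8.02 and 7.85 in KO with saline. In WT it had 9.83, 9.62 and 9.77 with R848, against 7.08, 7.41 and 7.21 with saline. The groups did not overlap, and the difference was 2.22 ± 0.11 in KO and 2.51 ± 0.11 in WT (limma adjusted p = 3.24e-10 and 8.8e-11).

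The rows of the IFIT family did not move as one. Ifit2, a neighbour of Ifit1 in the same cluster, rose by 0.97 in KO and 0.81 in WT. The row of Ifit3 read 6.36, 6.17 and 6.07 in KO with R848, against 6.27, 6.14 and 6.13 in KO with saline. In WT it read 6.28, 5.91 and 6.09 with R848, against 6.46, 6.25 and 5.89 with saline. These groups overlapped, with differences of 0.02 ± 0.13 in KO and -0.11 ± 0.13 in WT that did not pass. Its promoter holds 3 matches, as many as that of Ifit1. Ifit3 was read from 1 row, and whether that row captures its transcripts well was not tested. The values therefore do not show that R848 left Ifit3 unchanged.

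In the ISG15 system all 3 genes rose in each genotype. Usp18, the protease that removes the ubiquitin-like protein ISG15 and dampens the interferon receptor, had 10.21, 10.68 and 10.57 in KO with R848, against 7.76, 8.17 and 7.97 in KO with saline. In WT it had 10.05, 10.08 and 10.20 with R848, against 7.26, 7.45 and 7.43 with saline. Its difference was 2.52 ± 0.12 in KO and 2.73 ± 0.12 in WT, without overlap in either. Isg15, the modifier itself, had 9.05, 9.11 and 9.10 in KO with R848, against 7.59, 7.61 and 7.58 in KO with saline. In WT it had 8.96, 8.68 and 8.71 with R848, against 7.56, 7.71 and 7.46 with saline. The rise was 1.49 ± 0.09 in KO and 1.21 ± 0.09 in WT. Herc6, the main mouse ligase for ISG15, rose by 1.37 in KO and 1.30 in WT.

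All 6 measured sensors and RNA-responsive enzymes rose. Zbp1, a sensor of Z-form nucleic acid, rose most (1.53 in KO and 1.43 in WT), followed by the RNA sensor MDA5, encoded by Ifih1 (1.25 and 1.21 in the same order). Ddx58, which encodes RIG-I, rose by 0.78 in KO and 0.79 in WT. Smaller increases were seen for the kinase PKR (Eif2ak2, 0.51 in KO and 0.52 in WT), for Dhx58 (0.50 and 0.39) and for the RNA editing enzyme Adar (0.49 and 0.38), whose proteins bind double-stranded RNA. Of the oligoadenylate synthetase family, whose active members make the second messenger that switches on RNase L, 3 of 5 rose. These were Oasl1 (1.27 in KO and 1.08 in WT), Oas1g (0.75 and 0.86) and Oas2 (0.40 and 0.50). Oasl2 was already at 10.32 in KO with saline and 10.03 in WT with saline, and its differences with R848 were 0.11 in KO and 0.12 in WT. Oas3 differed by 0.09 in KO and 0.00 in WT. Neither of these 2 passed. Oas1g has close copies, one of which shares a row with it on this array, so its value may include their signal.

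Of the 6 genes that act on entry, release or nucleotides, 4 rose. Rsad2 (viperin), an enzyme that makes a chain-terminating nucleotide, had 10.67, 10.85 and 10.61 in KO with R848, against 9.05, 9.07 and 8.89 in KO with saline, a rise of 1.71 ± 0.10. In WT it had 10.58, 10.19 and 10.37 with R848, against 8.33, 8.56 and 8.46 with saline, a rise of 1.93 ± 0.10. Cmpk2, the nucleotide kinase encoded beside it, rose by 1.37 in KO and 1.55 in WT. The exonuclease gene Isg20 rose by 0.85 in KO and 0.72 in WT, and Samd9l, which restricts poxviruses, by 0.42 and 0.38. Bst2 (tetherin), which holds virus particles on the cell surface, had a mean of 10.29 in KO with R848, against 10.32 in KO with saline, and 10.22 in WT with R848, against 10.43 in WT with saline. Its differences, -0.03 in KO and -0.21 in WT, did not pass, nor did those of Ifitm3 (0.11 and 0.13).

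All 3 TRIM ubiquitin ligases and all 3 measured PARP genes rose in each genotype. Trim21, an antibody receptor in the cytosol, rose by 1.51 in KO and 1.37 in WT, Trim30a by 1.04 and 1.30, and Trim25, an activator of RIG-I, by 0.34 and 0.40. Among the ADP-ribosyltransferases, Parp14 rose by 1.27 in KO and 1.29 in WT, Parp9 by 1.12 and 1.28, and Parp12 by 0.80 and 0.83. Of 6 nuclear and regulatory factors 5 rose: Helz2, a helicase coactivator (1.76 in KO and 1.64 in WT), Phf11d (1.14 and 0.94), Ifi35 (1.02 and 0.87), Phf11b (0.97 and 0.76) and Nmi, a binding partner of Ifi35 (0.76 and 0.64). Sp100, a component of nuclear bodies, did not pass, with 0.03 in KO and 0.16 in WT. Phf11b and Phf11d are neighbouring copies, and their rows may share signal. In the remaining group Xaf1, a partner of the apoptosis inhibitor XIAP, rose by 0.86 in KO and 0.96 in WT and Rtp4 by 0.37 and 0.49, while the galectin gene Lgals9 (0.15 and 0.04) and Epsti1 (-0.03 and -0.13) did not pass.

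**Figure D2:**
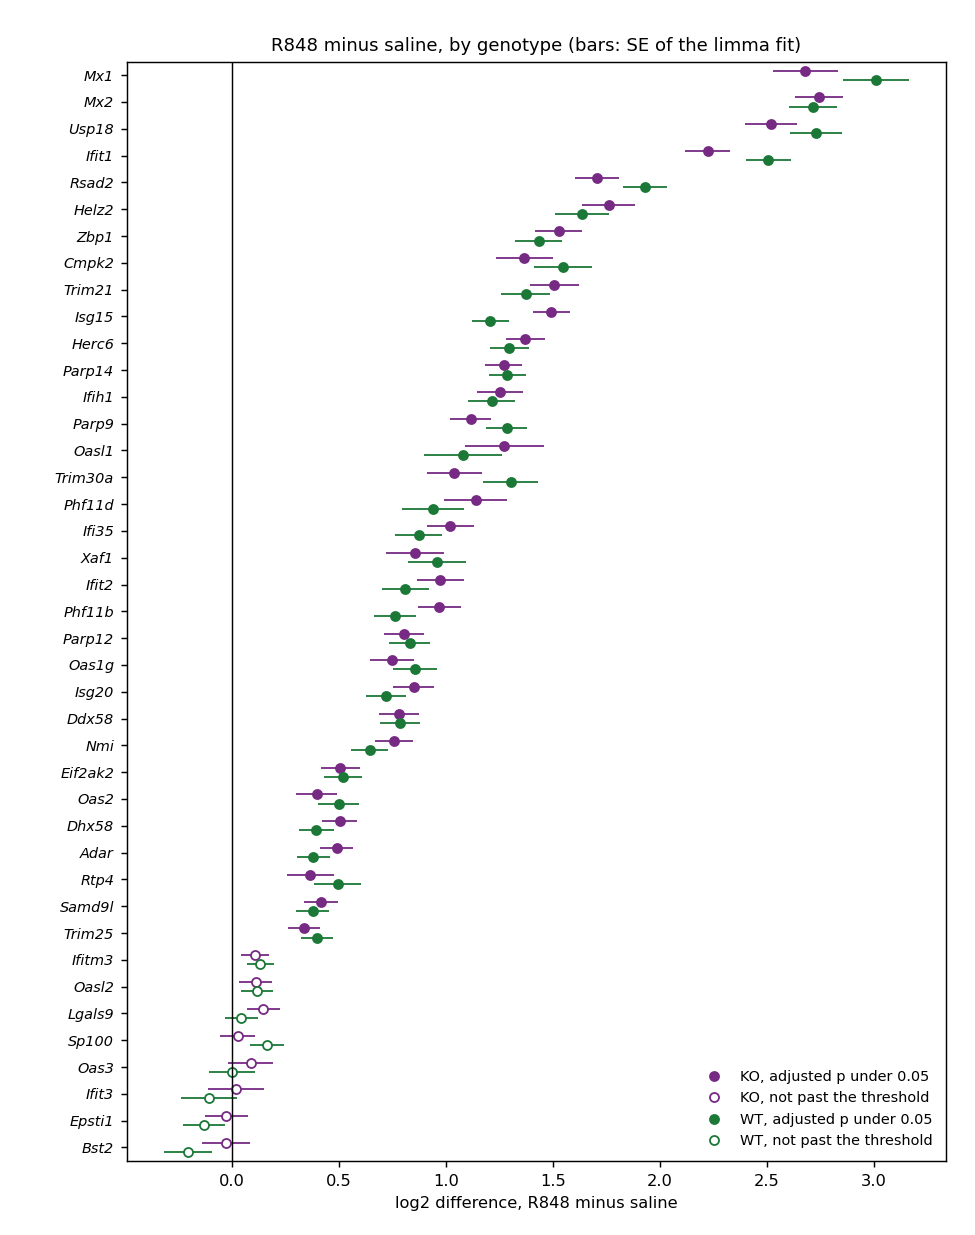
Log2 difference of R848 minus saline (x axis) for the 41 tested genes (rows, ordered by the mean of both genotypes), in KO and WT, with the SE of the limma fit and filled points for adjusted p under 0.05. The 33 filled rows run from Mx1 down to Trim25, and 8 genes without a call lie between -0.21 and 0.16.

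Genes rose both with and without the letters GAAANNGAA in the promoter. In WT 13 of 18 tested genes with a match rose, with a median of 0.64, and 11 of 14 without a match, with a median of 0.85. In KO the same numbers rose, with medians of 0.63 with a match and 0.92 without. Ifit3, Bst2, Oas3, Ifitm3 and Lgals9 hold matches and did not pass, while Helz2 and Cmpk2 rose by 1.64 and 1.55 in WT without these letters. The windows of Helz2, Oasl1, Phf11d and Xaf1 hold the related letters AANNGAAAC instead. Genes without GAAANNGAA can therefore still hold a form of the element, and the related letters were not set against the R848 differences.

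**Figure D3:**
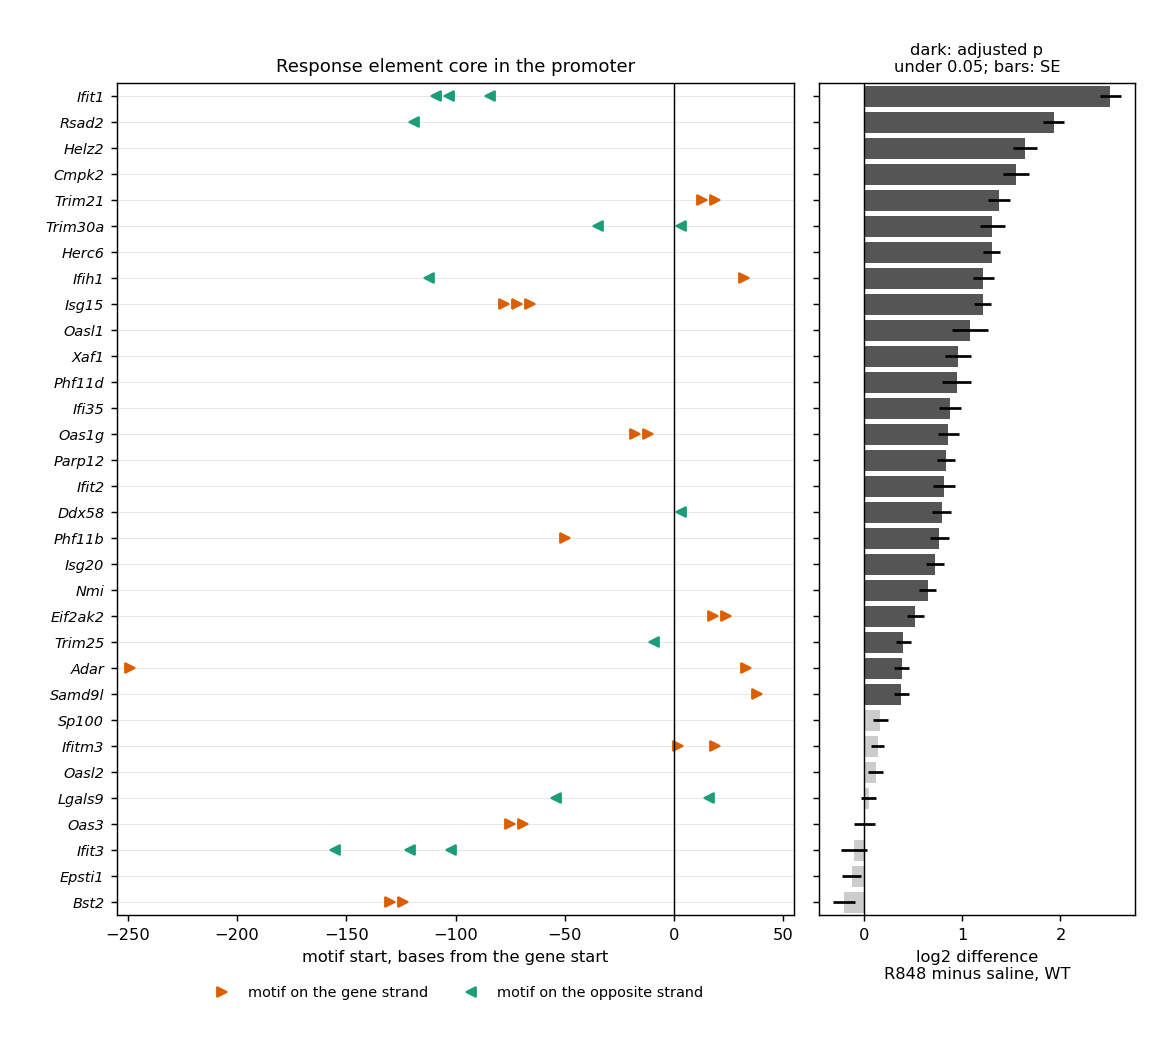
Left, start of each GAAANNGAA match relative to the annotated gene start in bases, for the 32 tested genes with a promoter sequence, with matches of several promoters of a gene overlaid. Right, log2 difference of R848 minus saline in WT with its SE, dark where adjusted p was under 0.05. Matches appear both in rows at the top, such as Ifit1 (2.51), and at the bottom, such as Bst2 (-0.21).

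Knockout cells had higher levels of most of these genes than WT cells within each treatment, by a small amount. With saline the difference was above 0 for 38 of 41 genes, with a median of 0.29, while 44.9% of all tested genes were above 0 and their median was -0.01. With R848 it was above 0 for 40 of 41 genes, with a median of 0.27, while 40.9% of all tested genes were above 0 and their median was -0.02. In both treatments 38 genes were above 0, while 23.7% of all tested genes were. These comparisons share no arrays, but whether they share mice or cultures is not stated. Same-numbered R848 and saline arrays had residual correlations of 0.27, 0.17 and 0.28 in KO and 0.25, -0.06 and 0.23 in WT. The 2 comparisons may therefore not be independent. The SE of a gene's difference within a treatment was 0.07 to 0.18. With saline 3 of 41 rose, against 0.142% of all tested genes, and 0 fell, against 0.192%. With R848 1 rose, against 0.0568%, and 0 fell, against 0.0781%.

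The KO arrays all lay above the WT arrays for 23 of 41 genes with saline, where 6.65% of all tested genes did so, and for 31 with R848, where 5.35% did. For 19 genes this held in both treatments, as for 1.09% of all tested genes. The genes are not independent of each other, since an array that was high for 1 of them tended to be high for many.

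The 3 genes called with saline were Mx1, Ifit1 and Rsad2. Mx1 was higher by 0.85 ± 0.15 (SE, limma adjusted p = 0.034) in KO saline arrays, which spanned 6.22 to 6.33, against 5.23 to 5.77 in WT saline arrays. Ifit1 was higher by 0.67 ± 0.11 (adjusted p = 0.0136), with 7.84 to 8.02 in KO, against 7.08 to 7.41 in WT. Rsad2 was higher by 0.55 ± 0.10 (adjusted p = 0.0432), with 8.89 to 9.07 in KO, against 8.33 to 8.56 in WT. None of the 3 calls was kept without WT saline replicate 1, WT saline replicate 3 or KO saline replicate 2, or in a fit of the 6 saline arrays alone, while the differences stayed between 0.49 and 1.03. Leaving out single arrays ended the call of Rsad2 in 8 of 12 fits, that of Mx1 in 6 and that of Ifit1 in 3. With R848 the same 3 genes had differences of 0.52, 0.39 and 0.33 that did not pass.

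With R848 the called gene was Phf11b, named for a zinc finger of the PHD type. It had 9.68, 9.94 and 9.92 in KO with R848, against 9.43, 9.13 and 9.30 in WT with R848, without overlap. The difference was 0.56 ± 0.10 (SE, limma adjusted p = 0.0419). With saline it had 8.85, 8.76 and 9.02 in KO, against 8.53, 8.58 and 8.46 in WT, a difference of 0.35 that did not pass. The call with R848 was lost without 8 of the 12 arrays in turn (adjusted p up to 0.244), while the difference stayed between 0.48 and 0.64. Differences at least as large with R848, in genes with larger SEs that did not pass, were those of Oasl1 (0.63 ± 0.18, adjusted p = 0.265), an inhibitor of Irf7 translation in the mouse, and Ifit2 (0.57 ± 0.11, adjusted p = 0.0726).

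**Figure D4:**
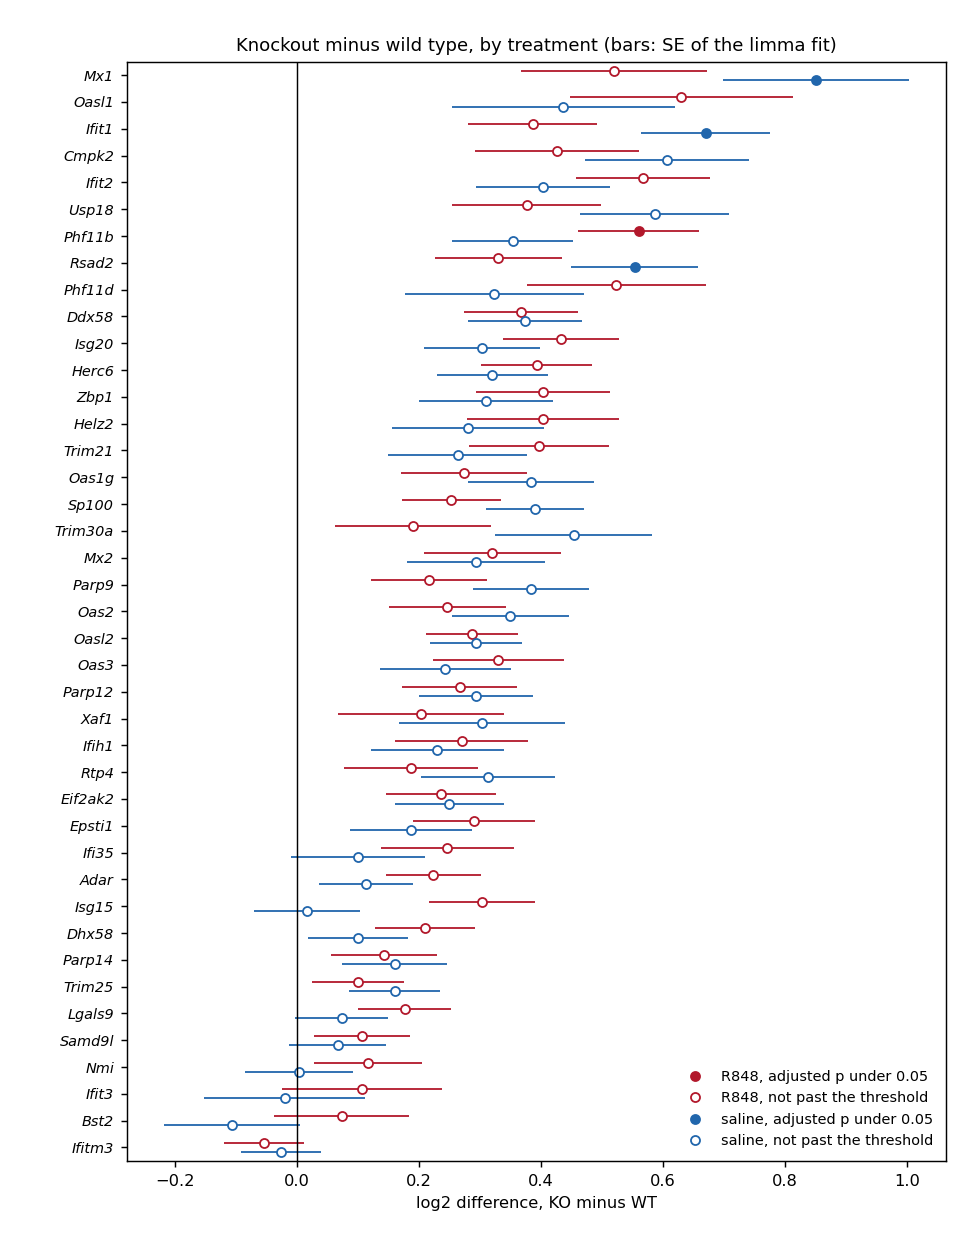
Log2 difference of KO minus WT (x axis) for the 41 tested genes (rows, ordered by the mean of both treatments), with R848 and with saline, with the SE of the limma fit and filled points for adjusted p under 0.05. Nearly all points lie right of 0, and 4 are filled: Mx1, Ifit1 and Rsad2 with saline and Phf11b with R848.

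Averaged over both treatments, with all 12 arrays, 17 of the 41 genes were higher in KO and 0 lower, against 0.774% and 1.01% of all tested genes. The median difference was 0.30, a 1.23-fold difference for Oas2, the gene at the median, while the median of all tested genes was -0.02. At an unadjusted p under 0.05, 36 of 41 were higher, where 5.53% of all tested genes were. The count of 17 rests in part on single arrays: it was 8 without WT R848 replicate 2 and 10 without KO saline replicate 2. With a minimum difference of 0.5 it was 3. The fit takes the R848 and saline arrays of a genotype as independent, although same-numbered KO arrays had correlated residuals. If such arrays share mice or cultures, the SEs and p-values of the averaged differences given here are too small. No fit joined same-numbered arrays within a genotype only.

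By role, the averaged difference was called for 3 of 5 genes of the IFIT and MX group: Mx1 (0.69 ± 0.11, SE, limma adjusted p = 0.00742), Ifit1 (0.53 ± 0.07, adjusted p = 0.00435) and Ifit2 (0.48 ± 0.08, adjusted p = 0.0079). Mx2 had 0.31 (adjusted p = 0.0649) and Ifit3 0.04. It was called for 3 of 6 effectors of entry, release and nucleotides, Cmpk2 (0.52), Rsad2 (0.44) and Isg20 (0.37), and for Usp18 (0.48) and Herc6 (0.36) of the ISG15 system. Among sensors Ddx58 (0.37) and Zbp1 (0.36) passed, and of the nuclear factors Phf11b (0.46) and Sp100 (0.32). Oas1g (0.33), Oas2 (0.30) and Oasl2 (0.29) passed in the OAS family, and Parp9 (0.30) and Parp12 (0.28) among the PARP genes. No TRIM gene passed, although Trim21 (0.33) and Trim30a (0.32) had differences of the same size. Zbp1, Oas1g, Oas2, Parp9 and Parp12 each lost the call when any of 8 to 11 of the 12 arrays was left out.

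The genotype difference was not limited to genes with an R848 call. Of the 8 genes without an R848 call, Sp100 and Oasl2 were called in the averaged comparison, where 0.774% of all tested genes were higher in KO. The call of Sp100 was lost in 1 of 7 alternative settings, and that of Oasl2 in 2 of 12 fits without single arrays. Sp100 had 9.34, 9.37 and 9.34 in KO with R848, against 9.16, 9.06 and 9.07 in WT with R848. With saline it had 9.26, 9.36 and 9.35 in KO, against 8.76, 9.06 and 8.98 in WT. KO arrays lay above WT arrays in each treatment. A second bright row of Sp100, with a mean of 8.94, differed by 0.20 with R848 and by 0.21 with saline. It was among the rows that had to pass in the setting where the call was lost. Oasl2 had 10.36, 10.44 and 10.50 in KO with R848, against 10.29, 10.09 and 10.06 in WT with R848, and 10.30, 10.35 and 10.32 in KO with saline, against 10.03, 10.02 and 10.04 in WT with saline. In each genotype all its R848 arrays lay above the saline arrays, so the missing call does not show that R848 left Oasl2 unchanged. The 8 genes together had a median averaged difference of 0.18, and the 33 genes with an R848 call one of 0.32. At the low end stood Ifitm3 (-0.04), Bst2 (-0.02), Ifit3 (0.04) and Nmi (0.06), with no call.

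The 5 measured OAS genes lie on chromosome 5, as does Rasgef1b. Their median averaged difference was 0.30 and that of the 36 genes on other chromosomes 0.29.

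Whether R848 raised these genes by a different amount in KO is the question of the interaction. It was called for 0 of 41 genes (limma), and 1 had an unadjusted p under 0.05, against 0.0142% and 4.93% of all tested genes. The interactions spanned -0.33 to 0.29 with SEs of 0.09 to 0.26, and their median was 0.04, against -0.01 over all tested genes. Without single arrays this median ran from -0.03 to 0.11, and it was below 0 without WT R848 replicate 2 and without WT saline replicate 2. Isg15 had the smallest p, with 0.29 ± 0.12 (SE, unadjusted p = 0.0341, adjusted p = 0.974): KO and WT differed by 0.30 with R848 and by 0.02 with saline. Ifit1 (-0.28, adjusted p = 0.986) and Mx1 (-0.33, adjusted p = 0.996) followed, both with a smaller rise in KO, where the saline level was higher. The Mx1 value was -0.20 without WT R848 replicate 1 and -0.51 without WT saline replicate 2. With 3 arrays a group, interactions of this size are near the error, so these values do not show that the responses were equal. The fit also takes same-numbered R848 and saline arrays as independent. If such arrays share mice or cultures, the SEs of the interactions and of the R848 differences may be too large.

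**Figure D5:**
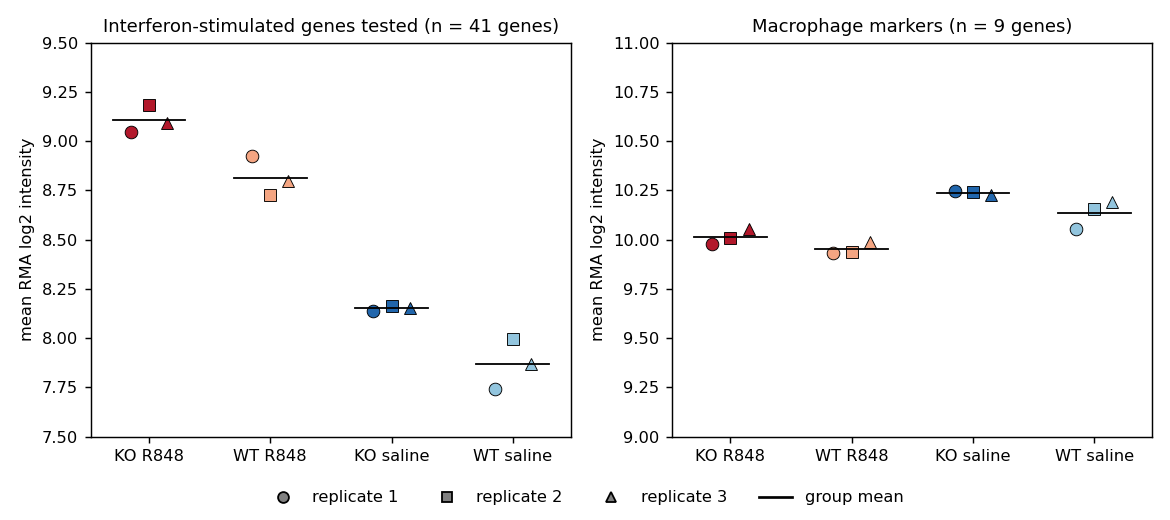
Mean RMA log2 intensity (y axes, which do not start at 0) of the 41 tested genes (left) and of 9 macrophage markers (right) on each array, with replicate numbers as symbols and group means as lines. For the interferon-stimulated genes, KO arrays lie above WT arrays in each treatment, and WT saline replicate 1 is the lowest array. For the macrophage markers, KO arrays lie above WT arrays with saline and overlap them with R848.

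The mean intensity over the 41 genes was 9.05, 9.18 and 9.09 in KO with R848, against 8.92, 8.72 and 8.80 in WT with R848. With saline it was 8.14, 8.16 and 8.15 in KO, against 7.74, 7.99 and 7.87 in WT. The 3 KO saline arrays were nearly alike (SD 0.01), while the WT saline arrays spread more (SD 0.13). The genes shared this spread. WT saline replicate 1 was the lowest of its group for 32 of 41 genes, where it was for 41.7% of all tested genes, and replicate 2 the highest for 31, where it was for 32% of all tested genes. WT R848 replicate 1 was the highest of its group for 33 of 41 genes, against 36.8% of all tested genes, and replicate 2 the lowest for 29, against 26.5%. KO R848 replicate 2 was the highest for 28, against 27.2%, and replicate 1 the lowest for 24, against 28.4%. What these arrays have in common was not tested.

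Genes of the pathway itself were followed on a list of 37, of which 30 had a row and 24 were tested. In KO 10 of 24 rose with R848 and 3 fell, against 15.6% and 26.0% of all tested genes. In WT 11 rose and 4 fell, against 14.6% and 23.6%. The kinase gene Ikbke rose by 2.26 in KO and 2.31 in WT, the feedback inhibitor Socs1 by 1.47 and 1.63, and the transcription factor gene Irf1 by 1.18 and 1.27. The receptor chain Ifnar1 rose by 0.66 in KO and 0.82 in WT, and Ifnar2 by 0.35 and 0.31. Tlr7, the receptor that senses R848 in mouse cells, fell by 0.45 in KO and by 0.34 in WT. Irf9 differed by 0.18 in KO, which did not pass, and rose by 0.28 in WT.

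For genotype, 2 of the 24 were called, Stat2 and Irf7, both higher in KO averaged over treatments, where 0.774% of all tested genes were. With R848 alone 0 of 24 were called (limma). At an unadjusted p under 0.05 there were 2, against 1230 of the 14079 genes tested. With saline alone 1 was called, Stat2, where 0.142% of all tested genes were higher. Stat2 had 9.54, 9.74 and 9.66 in KO with R848, against 9.34, 9.18 and 9.25 in WT with R848. With saline it had 9.01, 8.86 and 8.90 in KO, against 8.15, 8.50 and 8.26 in WT, and KO lay above WT in each treatment. Its averaged difference was 0.50 (limma adjusted p = 0.00235), with R848 alone it was 0.39 (adjusted p = 0.189), and with saline alone it was 0.62 (adjusted p = 0.0107). Irf7, the factor that drives interferon alpha genes, had 9.04, 9.21 and 9.14 in KO with R848, against 8.80, 8.63 and 8.81 in WT with R848. With saline it had 8.98, 9.05 and 9.01 in KO, against 8.68, 8.90 and 8.77 in WT, and its averaged difference was 0.31 (adjusted p = 0.019). Neither treatment alone passed for Irf7, with 0.38 with R848 (adjusted p = 0.121) and 0.23 with saline (adjusted p = 0.235). R848 did not change Irf7 detectably, with 0.12 in KO and -0.04 in WT. The receptor chains Ifnar1 and Ifnar2 had averaged differences of -0.05 and -0.01, Tlr7 one of 0.19 and Irf9 one of 0.07, none of which passed. The median over the 24 genes was 0.05, against 0.30 for the 41 antiviral genes.

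The interferon-induced GTPases, a family that attacks vacuoles of intracellular microbes, were also followed, on a list of 15 of which 10 were tested. Of these 10, 5 were higher in KO averaged over treatments, with a median of 0.40, against 0.774% of all tested genes. Within a treatment 0 of 10 were called between genotypes, with R848 or with saline (limma). At an unadjusted p under 0.05 there were 8 with R848, against 1230 of the 14079 genes tested. With saline there were 5, against 1767 of 14079. With R848, 9 of 10 rose in KO, against 15.6% of all tested genes, and 10 of 10 in WT, against 14.6%, led by Gbp5 (5.16 in KO and 5.28 in WT), Gbp7 (2.90 and 3.19) and Gbp3 (2.81 and 2.51). Several of these genes are close copies in 1 cluster, and their rows may share signal.

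Markers of other cell types were mostly dim, with exceptions. All 3 measured mast cell markers, 3 of 4 B cell markers and 4 of 6 T and NK cell markers were under the dim limit on all arrays. Of the 5 plasmacytoid dendritic cell markers, a cell type known for high interferon output, Spib was under the limit on all arrays, and Siglech, at 4.13 to 4.53, and Ccr9 were above it on 3 and 2. Tcf4 and Ly6d were above it on all, and the mean of the 5 lay between 4.92 and 5.10 over all arrays. Of the 6 conventional dendritic cell markers 5 were above the limit on all arrays, and their mean was 5.95 to 6.08 in KO with saline, against 5.72 to 6.02 in WT with saline. Cd209a, the brightest of them, differed by 0.52 with saline (limma adjusted p = 0.0716) and by -0.03 with R848. Of 8 neutrophil markers 3 were above the limit on all arrays, and the mean of the 8 was 4.05 to 4.07 in KO with R848, against 3.92 to 4.01 in WT with R848. Among them S100a9, a calcium-binding protein of neutrophils and monocytes, was the 1 marker of any cell type on these lists called between genotypes, named here after its values were seen. It had 5.24, 5.06 and 5.28 in KO with R848, against 4.74, 4.91 and 4.52 in WT with R848, and 4.85, 4.88 and 4.88 in KO with saline, against 4.69, 4.79 and 4.77 in WT with saline. KO arrays lay above WT arrays in each treatment, and the difference was 0.30 averaged over treatments (limma adjusted p = 0.0375), 0.47 with R848 (adjusted p = 0.0866) and 0.12 with saline (adjusted p = 0.644). The neutrophil markers Ly6g, Mpo, Camp and S100a8 were under the dim limit on all arrays. Of 5 fibroblast markers only the collagen genes Col1a1, Col1a2 and Col3a1 were above it, at 4.62 to 5.51. The part of these markers, and of the macrophage markers, in the genotype difference was not tested.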

How the data were processed

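Gene expression was measured on Affymetrix Mouse Gene 2.1 ST arrays, 1 per sample. The deposited values are log2 intensities made by the authors with Affymetrix Expression Console and RMA, per the submitters' processing notes. RMA corrects background, quantile-normalizes the arrays and summarizes probes, so a change in total RNA per cell is not visible, and differences of dim rows are compressed. The labels give no version of either tool. The values spanned 2.15 to 12.85.

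The table held 34472 rows, of which 23521 were paired with 1 symbol, 1814 with several and 9137 with none. RefSeq matched 23328 of the single-symbol rows by Entrez number and changed 0 symbols. A gene was tested if its row exceeded the 40th percentile of the single-symbol rows on at least 3 arrays, which kept 14079 and removed 8101 genes. One linear model per gene was fitted on all 12 arrays with 4 group means (limma 3.58.1, R 4.3.3). Benjamini-Hochberg adjustment ran over all tested genes within a contrast, with a threshold of 0.05. The fit was tested on simulated data.

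The genes and lists were chosen with earlier results of these data known. Array values are given for Ifnb1, for genes called between genotypes within a treatment, for the 4 largest increases with R848 in WT and for the 3 smallest interaction p-values. Further genes shown by array (Ifit3, Sp100, Oasl2, Stat2, Irf7, S100a9) were picked after their values were seen. Same-numbered KO arrays with R848 and saline had residual correlations of 0.27, 0.17 and 0.28, above the minimum of 0.1 set for pairing. No other pair of groups met it. The number of arrays limits the precision.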

Additional observations from a re-analysis of the deposited data

How the results depend on the processing

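The alternatives were a robust spread with intensity trend, no or a stricter filter, median centring, cyclic loess, a replicate block, all rows of a gene, a minimum difference of 0.5, only the 6 arrays compared and leaving out each array. The R848 calls stayed within 1.5 times, with 28 to 36 of 41 genes in KO and 28 to 34 in WT. The interaction stayed at 0 calls under all that apply to it. The 17 averaged genotype calls were 3 with the minimum difference, 14 to 22 otherwise, and 8 to 22 without single arrays (8 without WT R848 replicate 2, 10 without KO saline replicate 2). The 3 calls with saline were 5 with robust spread, 5 with the replicate block (KO and WT numbers are not shown to be paired), 0 with the 6 saline arrays alone, and 0 to 3 without single arrays: 0 without WT saline replicate 1 or 3 or KO saline replicate 2, and 1 without WT R848 replicate 3. The 1 call with R848 was 0 without a filter, 0 with the replicate block, 0 with 6 arrays, 2 with cyclic loess and 0 to 2 without single arrays: 2 without WT R848 replicate 1, and 0 without KO R848 replicate 2 or 3, WT R848 replicate 2 or 3, KO saline replicate 1 or any WT saline array. The block changed no other count by more than 1.5 times. Median genotype differences kept their sign in all cases, at 0.21 to 0.37 with saline and 0.23 to 0.35 with R848, also after median centring and cyclic loess, while the median interaction turned sign, at -0.03 to 0.11 without single arrays. No named difference changed its sign. The causes were not tested.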
